A study of Mus musculus with 8 samples.

Results

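Activated hepatic stellate cells (HSCs), the collagen-producing cells of the injured liver, were compared after 12 h with or without auranofin, a gold compound used against rheumatoid arthritis. Genes were taken where the 4 HSC libraries averaged 1 FPKM or more, which gave 12149 of the 18645 genes listed for these cells. FPKM is the number of fragments of a gene per kilobase of transcript, scaled to the fragments of the library. The 4 libraries are 4 of the 8 samples of the series, 2 of them vehicle and 2 of them auranofin at 0.03 µM. The primary cells came from the liver of C57BL/6 mice, with no transgene named, and both groups shared the same handling: separation on a ficoll and percoll density gradient and activation by culture with serum on uncoated plastic. The labels call the control cells untreated, whereas the study's text calls them vehicle-exposed. Neither gives the age or number of mice, and whether the replicates of a group came from separate cultures is not stated, so p-values here measure only the spread between these libraries. The comparison asks which transcripts of these activated HSC cultures differ after auranofin.

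From the steps of low values, their depth was estimated at 31500000 and 33000000 fragments for vehicle and 29800000 and 39400000 for auranofin, and such depths set counting error only. The cultures carried transcripts of several liver cell types. Of the 20 stellate cell markers, 18 reached 1 FPKM, and they summed to between 3421 and 3539 FPKM with vehicle and between 3053 and 3121 FPKM with auranofin. Those of macrophages were higher still, with 19 of 20 markers at 1 FPKM or more and a sum of 11764 and 11951 FPKM in vehicle against 11704 and 11664 FPKM in auranofin libraries. The lysozyme gene Lyz2 contributed the most among the markers named here and lay between 5379 and 5554 FPKM in the 4 libraries. Among markers of the liver's own resident macrophages, Vsig4 lay between 249 and 261 FPKM and Cd5l between 1474 and 1657 FPKM. On the same macrophage list, Clec4f lay between 58.6 and 73.5 FPKM, but Cd163 only between 1.32 and 1.69 FPKM. Timd4 stayed between 0.262 and 0.610 FPKM. The 15 endothelial markers were all at 1 FPKM or more and summed to 400.5 to 422 FPKM with vehicle and 399.8 to 425 FPKM with auranofin, and the 6 mesothelial markers to 243 and 285 FPKM in vehicle against 208 and 216 FPKM in auranofin libraries. The 8 neutrophil markers, 4 of them at 1 FPKM or more, summed to 25.2 and 10.7 FPKM in vehicle against 10.5 and 84.4 FPKM in auranofin libraries. No hepatocyte or lymphocyte marker averaged 1 FPKM over the libraries, although Alb, which encodes albumin, was at 1.22 FPKM in vehicle replicate 2. Quiescence markers were sparse, with Lrat between 1.70 and 2.85 FPKM and Gfap below 1 FPKM. Because these are bulk samples, fewer cells of a type and less RNA per cell cannot be told apart.

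Auranofin binds selenium- and thiol-containing enzymes, and thioredoxin reductase is its best-known target. Cells sense such thiol stress through KEAP1, a cysteine-rich adaptor that marks the transcription factor NRF2 for destruction by the proteasome. When KEAP1 is modified, NRF2 escapes, pairs with a small MAF protein and switches on genes for glutathione synthesis, thioredoxin recycling, NADPH supply, heme breakdown and drug conjugation. In HSCs, activation brings a contractile, matrix-producing myofibroblast state with α smooth muscle actin as its usual mark.

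Differences between vehicle and auranofin were few and mostly small. Each value was taken as log2(FPKM + 1) and the groups were compared with limma, a linear model that shares variance information between genes, with a call at a Benjamini-Hochberg adjusted p under 0.05. Differences are auranofin minus vehicle on this scale, where the change of a low gene appears too small, and each is given ± its standard error. Of the 12149 genes tested, 151 (1.24%) were higher with auranofin and 132 (1.09%) were lower. The rises were larger than the falls, since 14 of the 151 reached 2-fold on this scale against 3 of the 132, and 103 and 117, respectively, stayed under 1.5-fold. The median called rise was 0.48 and the median called fall -0.36 on the log2 scale, beside a median of 0.00 over all genes tested. With a second rule, a change of 1.5-fold or more with an unadjusted p below 0.05, 52 genes (0.428%) were higher and 18 (0.148%) lower, of which 48 and 15 were among the calls by adjusted p. Both auranofin libraries lay above both vehicle libraries in 26.2% of all genes tested and below both in 23.9%, and this separation held in all 283 called genes. The counts turn on single libraries: 268 genes were called higher and 225 lower without vehicle replicate 1, 196 and 178 without vehicle replicate 2, 94 and 83 without auranofin replicate 1, and 119 and 110 without auranofin replicate 2. They also rest on the shared variance: limma called 40 and 9 when low genes were kept in the fit and 0 and 0 when each gene used its own variance, where 1585 genes had an unadjusted p under 0.05. With 2 libraries against 2, an exact permutation test of a single gene cannot give a two-sided p below 0.333.

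**Figure D1:**
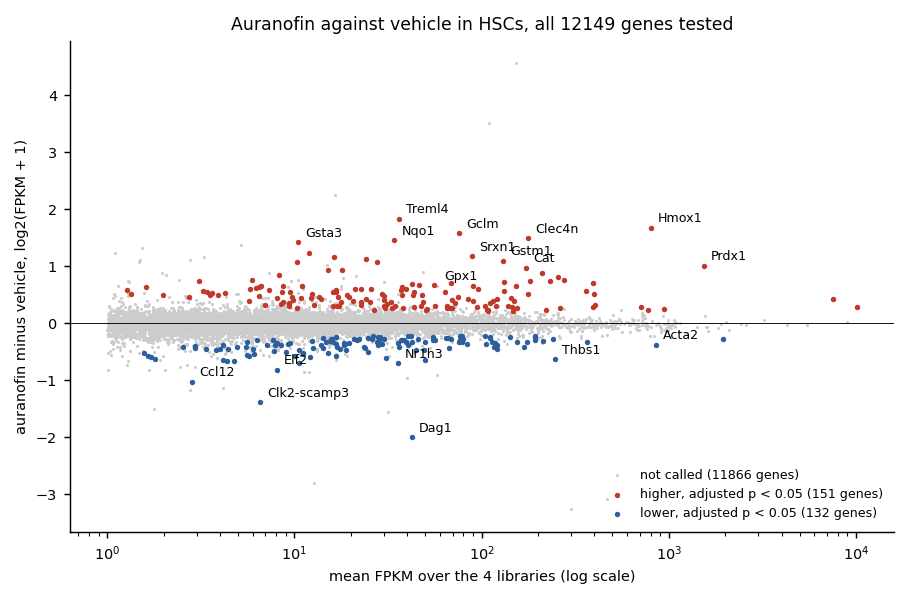
Difference between auranofin and vehicle, on the log2(FPKM + 1) scale, against the mean FPKM over the 4 libraries (log axis), 1 point a gene. Red points are the 151 genes higher and blue points the 132 genes lower at an adjusted p under 0.05, grey points are the rest, and Hmox1, Gclm, Treml4 and Clec4n lead the rises while Dag1 is lowest among the called genes. Grey points far from 0 are genes whose libraries of the same group differ.

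NRF2 target genes made up the clearest group. This list and those below were written with earlier results of these data known, so their counts are not independent of the values. Of the 46 genes on this list, 41 were tested and 32 of them were higher with auranofin, beside 1.24% of all genes, and none was lower. All 41 had a difference above 0, beside 52.2% of all genes. In 40 both auranofin libraries lay above both vehicle libraries, beside 26.2% of all genes. The list's median difference was 0.59, and taken library by library the median deviation from vehicle came to 0.64 in auranofin replicate 1 and 0.55 in replicate 2. Which cells of these mixed cultures held the transcripts was not tested. Of the 9 members that were not called, 8 had an unadjusted p under 0.05, and Marco, a macrophage scavenger receptor with 439 and 382 FPKM in vehicle against 463 and 413 FPKM in auranofin libraries, overlapped between the groups. Without auranofin replicate 1 or 2 the count was 24 or 26, and without vehicle replicate 1 or 2 it was 35 or 30.

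**Figure D2:**
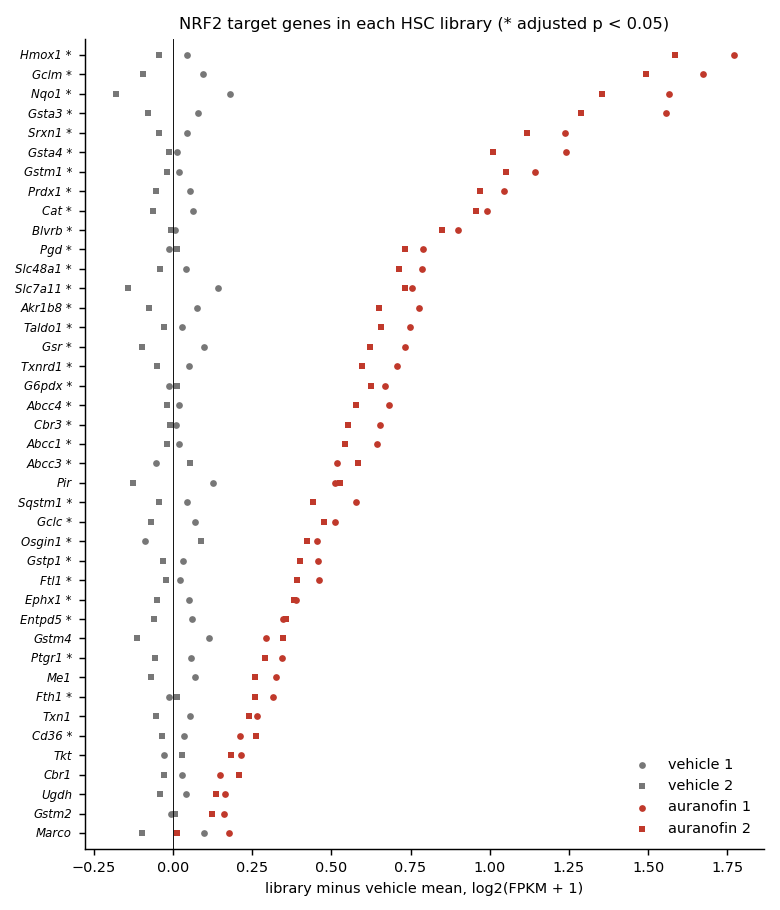
Each of the 41 tested NRF2 target genes, ordered by its difference, as the deviation of every library from the mean of the vehicle libraries on the log2(FPKM + 1) scale. Circles are replicate 1 and squares replicate 2 of vehicle (grey) and auranofin (red), and asterisks mark the 32 called genes. The auranofin points of Hmox1, Gclm, Nqo1 and Gsta3 lie beyond 1 while those of Marco overlap with the vehicle points.

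The largest rise on this list was that of Hmox1, heme oxygenase, which opens the heme ring and releases iron. Hmox1 stood at 391 and 368 FPKM in the vehicle libraries and at 1296 and 1141 FPKM in the auranofin libraries. Its difference was a log2 difference of 1.68 ± 0.07 (SE, n = 2 per group) with an adjusted p of 0.00132, so auranofin libraries held 3.21 times the vehicle mean. On mm10 it is found on chromosome 8, from 75093618 to 75100593. Later steps of heme and iron handling moved with it. Blvrb, a biliverdin reductase, had 148 and 147 FPKM in vehicle against 277 and 267 FPKM in auranofin libraries (log2 difference 0.88 ± 0.03, adjusted p = 0.00132). Slc48a1, which carries heme out of endosomes and lysosomes, had 138 and 131 FPKM in vehicle against 232 and 221 FPKM in auranofin libraries (log2 difference 0.75 ± 0.04, adjusted p = 0.00295). Of 30 tested genes for heme and iron, 8 were higher (26.7%), beside 1.24% of all genes, and none was lower. The list's median was only 0.03. Besides those named, the 8 included both ferritin chains, which were among the most abundant transcripts of these cultures. As macrophage markers were also abundant, the part of each cell type in the heme and iron differences was not tested. Ftl1, the light chain, had 6512 and 6321 FPKM in vehicle against 8829.6 and 8417 FPKM in auranofin libraries, and Fth1, the heavy chain, had 9033 and 9183 FPKM in vehicle against 11329.8 and 10908 FPKM in auranofin libraries. The call of Fth1 was lost whichever library was left out. Slc40a1, the iron exporter ferroportin, had 124 and 118 FPKM in vehicle against 169 and 163 FPKM in auranofin libraries (log2 difference 0.45 ± 0.04, adjusted p = 0.00888), and Slc11a1, the phagosomal metal transporter of macrophages, had 76.9 and 75.4 FPKM in vehicle against 118 and 114 FPKM in auranofin libraries (log2 difference 0.60 ± 0.03, adjusted p = 0.00287). The porphyrin transporter Abcb6 also rose (log2 difference 0.65 ± 0.05, adjusted p = 0.00445), whereas heme synthesis enzymes such as Alas1, with 81.8 and 86.5 FPKM in vehicle against 92.5 and 95.2 FPKM in auranofin libraries, were not called.

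For glutathione, 3 of 5 tested synthesis genes and 1 of 5 tested transport genes were called higher. Gclm, the modifier subunit of the enzyme that joins glutamate to cysteine, is on chromosome 3 from 122245487 to 122267215. Gclm stood at 40.0 and 34.9 FPKM in the vehicle libraries and at 121 and 107 FPKM in the auranofin libraries. The groups were far apart, with a log2 difference of 1.58 ± 0.08 (SE, n = 2 per group) with an adjusted p of 0.0021. Its catalytic partner Gclc rose less, with 16.4 and 14.8 FPKM in vehicle against 22.6 and 22.1 FPKM in auranofin libraries (log2 difference 0.49 ± 0.06, adjusted p = 0.0169). Gsr, which regenerates reduced glutathione with NADPH, had 38.0 and 33.0 FPKM in vehicle against 59.4 and 55.0 FPKM in auranofin libraries (log2 difference 0.68 ± 0.07, adjusted p = 0.0144). For Slc7a11, the cystine importer of system xc-, the level was low in all libraries: 2.37 and 1.77 FPKM in vehicle against 4.15 and 4.07 FPKM in auranofin libraries. It was called with a log2 difference of 0.74 ± 0.10 (SE, n = 2 per group) with an adjusted p of 0.0292, but not when either auranofin library was left out. Its heavy chain Slc3a2 had 63.4 and 86.7 FPKM in vehicle against 83.4 and 86.6 FPKM in auranofin libraries and was not called (adjusted p = 0.511). Neither of the enzymes that make cysteine from methionine was called: Cth had 1.95 and 1.77 FPKM in vehicle against 1.602 and 1.63 FPKM in auranofin libraries, and Cbs stayed below the minimum, between 0.273 and 0.452 FPKM. In all, 4 of 16 tested genes of cystine uptake and glutathione synthesis were higher (25%), beside 1.24% of all genes, and none was lower. Each of the 4 is also an NRF2 target on the list above. The median of the whole list was -0.05. The call of Gclc was lost without auranofin replicate 1.

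Glutathione transferases, which attach glutathione to reactive compounds, rose in 5 of 20 tested members (25%), beside 1.24% of all genes. Gsta3 stood at 5.53 and 4.87 FPKM in the vehicle libraries and at 17.2 and 14.1 FPKM in the auranofin libraries, with a log2 difference of 1.42 ± 0.10 (SE, n = 2 per group) with an adjusted p of 0.00445. Gsta4, whose protein handles lipid aldehydes, had 15.0 and 14.7 FPKM in vehicle against 36.4 and 30.8 FPKM in auranofin libraries (log2 difference 1.12 ± 0.08, adjusted p = 0.00442), and Gstm1 had 83.7 and 81.5 FPKM in vehicle against 183 and 172 FPKM in auranofin libraries (log2 difference 1.10 ± 0.04, adjusted p = 0.00132). The microsomal Mgst1 had 147 and 143 FPKM in vehicle against 208 and 209 FPKM in auranofin libraries and Gstp1 had 105 and 101 FPKM in vehicle against 142 and 136 FPKM in auranofin libraries. Within each of the alpha, mu and pi families, members can be close copies of one another. Fragments may thus have been shared out between such copies when the values were made. None of the 6 tested glutathione peroxidases was called. Gpx4, which protects membrane lipids, had 355 and 355 FPKM in vehicle against 371 and 372 FPKM in auranofin libraries. Gpx1 had 39.6 and 38.5 FPKM in vehicle against 31.8 and 121 FPKM in auranofin libraries. Its group mean of 196% of vehicle rested on 1 library: leaving out auranofin replicate 1 gave a difference of 1.61 and leaving out auranofin replicate 2 gave -0.29 (adjusted p = 0.591 with both).

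In the thioredoxin system, the transcript of a reductase that auranofin has been reported to inhibit was higher. The study found thioredoxin reductase protein to be lacking in HSCs, and protein was not measured by these RNA values. Txnrd1 stood at 123 and 114 FPKM in the vehicle libraries and at 194 and 179.7 FPKM in the auranofin libraries, with a log2 difference of 0.65 ± 0.05 (SE, n = 2 per group) with an adjusted p of 0.00727. Its mitochondrial relative Txnrd2, with 8.72 and 9.09 FPKM in vehicle against 9.42 and 9.84 FPKM in auranofin libraries, was not called (adjusted p = 0.356), nor was Txnrd3. The substrate Txn1 narrowly missed the threshold: 262 and 243 FPKM in vehicle against 303 and 298 FPKM in auranofin libraries, a difference of 0.25 ± 0.04 (SE) with an adjusted p of 0.0551. Mitochondrial Txn2 differed by -0.01, with a 95% interval from -0.12 to 0.11. Of 10 tested peroxiredoxins and related repair genes, Srxn1 and Prdx1 rose (20%), beside 1.24% of all genes. Srxn1, sulfiredoxin, restores overoxidised peroxiredoxins and had 55.7 and 52.3 FPKM in vehicle against 128 and 118 FPKM in auranofin libraries (log2 difference 1.18 ± 0.05, adjusted p = 0.00174). Prdx1 was among the most abundant redox transcripts, with 1062 and 986 FPKM in vehicle against 2113 and 2007 FPKM in auranofin libraries (log2 difference 1.01 ± 0.05, adjusted p = 0.00176). Prdx2 differed by -0.04 and Prdx5 by 0.05, and neither was called. Cat, catalase, had 121 and 111 FPKM in vehicle against 232 and 226 FPKM in auranofin libraries (log2 difference 0.97 ± 0.05, adjusted p = 0.00176), and cytosolic Sod1 had 361 and 355 FPKM in vehicle against 451 and 438 FPKM in auranofin libraries (log2 difference 0.31 ± 0.03, adjusted p = 0.014), whereas mitochondrial Sod2, at 22.5 and 20.7 FPKM in vehicle against 23.7 and 22.0 FPKM in auranofin libraries, was not called. The call of Sod1 was lost without auranofin replicate 1.

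Pgd and G6pdx, the NADPH-making enzymes of the pentose phosphate pathway, had 202 and 206 FPKM in vehicle against 353 and 340.2 FPKM in auranofin libraries, and 69.5 and 70.7 FPKM in vehicle against 112 and 109 FPKM in auranofin libraries, respectively, with differences of 0.76 and 0.65. Taldo1, of the non-oxidative branch, had 305 and 294 FPKM in vehicle against 503 and 472 FPKM in auranofin libraries (log2 difference 0.70 ± 0.04, adjusted p = 0.00339). Of 22 genes tested, 4 were higher (18.2%), beside 1.24% of all genes, and none was lower. The other called gene was Idh1, whose call was lost without either auranofin library. Nqo1, a quinone reductase and a standard readout of NRF2, is on chromosome 8 from 107388225 to 107403205. Nqo1 stood at 20.2 and 15.5 FPKM in the vehicle libraries and at 54.4 and 46.8 FPKM in the auranofin libraries. The vehicle libraries differed more here than for Hmox1, yet the groups were separate with a log2 difference of 1.46 ± 0.13 (SE, n = 2 per group) with an adjusted p of 0.00845. Its relative Nqo2 had 11.8 and 11.8 FPKM in vehicle against 11.7 and 11.9 FPKM in auranofin libraries and a difference of -0.00. Among carbonyl-reducing and related enzymes, Akr1b8 rose by 0.71 on the log2 scale (adjusted p = 0.0101), Esd, an esterase that completes formaldehyde removal, by 0.82 on the log2 scale (adjusted p = 0.00606), and Cbr3 by 0.60 on the log2 scale (adjusted p = 0.00606). Of 36 tested genes of quinone, carbonyl and epoxide detoxification, 10 were higher and none was lower, falling to 5 without auranofin replicate 1. Of 24 ABC efflux transporters, Abcc1, Abcc3, Abcc4 and Abcb6 were higher and the count stayed at 4 whichever library was left out. The shares called higher were 27.8% of the detoxification genes and 16.7% of the efflux transporters, beside 1.24% of all genes. Abcc1, which exports glutathione conjugates, had 31.7 and 30.8 FPKM in vehicle against 49.4 and 46.0 FPKM in auranofin libraries.

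None of the 10 tested genes on the list of NRF2 regulators was called higher, and 1 was called lower (10%), beside 1.09% of all genes. Of them, 6 were above 0, beside 52.2% of all genes. In 3 both auranofin libraries lay above both vehicle libraries, beside 26.2% of all genes. Nfe2l2, which encodes NRF2, was lower: 123 and 119 FPKM in vehicle against 102 and 99.0 FPKM in auranofin libraries, a log2 difference of -0.26 ± 0.04 (SE, n = 2 per group) with an adjusted p of 0.0289. That call was lost without either auranofin library. Keap1 had 25.3 and 26.1 FPKM in vehicle against 29.1 and 27.5 FPKM in auranofin libraries (adjusted p = 0.207), Bach1, a repressor of the same sites, had 12.8 and 12.4 FPKM in vehicle against 12.6 and 13.1 FPKM in auranofin libraries (adjusted p = 0.808), and the partner Mafg had 22.7 and 22.9 FPKM in vehicle against 27.3 and 25.6 FPKM in auranofin libraries (adjusted p = 0.0877). None of the other 6 tested regulators was called.

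NRF2 with its small MAF partner binds the antioxidant response element, whose core is TGACNNNGC, or GCNNNGTCA when read on the other strand. This core was looked for on both strands in the RefSeq promoters of GRCm38.p6, the assembly of mm10, from 250 bases before to 50 after each start, which were at hand for 9628 of the 12149 genes. It was present in 17.0% of all these promoters, in 27 of 118 called higher (22.9%), in 10 of 96 called lower (10.4%) and in 8 of 25 called NRF2 targets (32.0%). A match is a description of the letters and not a site of binding, and many known elements of these genes lie farther away than this window. The following stretches show the core in capitals, each read 5′ to 3′ on the gene's own strand, for 7 of the called genes whose core lies before the start, chosen from the NRF2 targets and proteasome genes after their values were seen. Abcc4, an NRF2 target with a core in the promoter of each of 2 listed starts, is not shown.
Gclm, chr3:122245397-122245457, plus strand: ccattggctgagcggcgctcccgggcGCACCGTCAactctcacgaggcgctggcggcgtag
Gsta3, chr1:21240438-21240498, plus strand: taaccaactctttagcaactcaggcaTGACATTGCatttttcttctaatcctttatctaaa
Prdx1, chr4:116685440-116685500, plus strand: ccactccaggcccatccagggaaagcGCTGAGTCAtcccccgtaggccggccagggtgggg
Txnrd1, chr10:82859088-82859148, plus strand: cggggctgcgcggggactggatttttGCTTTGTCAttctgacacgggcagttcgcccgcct
G6pdx, chrX:74428903-74428963, minus strand: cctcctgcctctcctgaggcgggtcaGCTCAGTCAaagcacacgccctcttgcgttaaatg
Psmb5, chr14:54618008-54618068, minus strand: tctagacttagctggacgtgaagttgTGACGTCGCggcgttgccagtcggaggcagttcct
Adrm1, chr2:180171400-180171460, plus strand: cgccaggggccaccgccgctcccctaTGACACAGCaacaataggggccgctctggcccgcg
The core of Prdx1 overlaps TGANTCA, the letters that AP-1 also binds, while those of the other 6 do not. The last 2 belong to proteasome genes, described next. Promoters were at hand for 10 called proteasome genes. The core was present in 2 of these 10 (20%), beside 17.0% of all promoters at hand.

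Many proteasome subunits were higher by a small amount. All 47 genes of this list were tested, 11 were higher (23.4%), beside 1.24% of all genes, and none was lower. In 36 both auranofin libraries lay above both vehicle libraries, beside 26.2% of all genes. The median difference was 0.15, with 0.19 in auranofin replicate 1 and 0.13 in replicate 2. Adrm1, the ubiquitin receptor of the 19S cap, had 63.2 and 62.2 FPKM in vehicle against 88.1 and 84.1 FPKM in auranofin libraries (log2 difference 0.45 ± 0.04, adjusted p = 0.00745). Psma5 of the 20S core had 73.1 and 71.9 FPKM in vehicle against 100.2 and 94.9 FPKM in auranofin libraries (log2 difference 0.42 ± 0.04, adjusted p = 0.0101), Psmd11 of the cap had 42.8 and 42.0 FPKM in vehicle against 55.6 and 54.8 FPKM in auranofin libraries (log2 difference 0.37 ± 0.03, adjusted p = 0.0101), and Psmb5, the chymotrypsin-like active subunit, had 95.6 and 98.8 FPKM in vehicle against 126 and 121 FPKM in auranofin libraries (log2 difference 0.35 ± 0.04, adjusted p = 0.0144), a call lost without auranofin replicate 1. Of the interferon-inducible subunits, Psmb8 differed by -0.09, Psmb9 by -0.10 and Psmb10 by 0.06, and none was called. The number called was 3 without auranofin replicate 1, 7 without auranofin replicate 2, and 18 and 10 without vehicle replicates 1 and 2.

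Few genes of other stress programmes were called. The shares called higher were 2.7% of heat shock genes, 3.85% of metallothionein and metal transport genes and 6.25% of autophagy genes. They were 2.56% of p53 and cell death genes, beside 1.24% of all genes. None of 47 genes of the ATF4 and unfolded protein response was called in either direction by limma, and 10 had an unadjusted p under 0.05, beside 17.8% of all genes tested. Atf4 had 114 and 128 FPKM in vehicle against 130.1 and 129 FPKM in auranofin libraries, Ddit3, which encodes CHOP, had 58.1 and 56.9 FPKM in vehicle against 58.1 and 59.3 FPKM in auranofin libraries, and the ER chaperone Hspa5 had 352 and 356 FPKM in vehicle against 362 and 363 FPKM in auranofin libraries. Of 37 heat shock genes only Hspb8 was called (log2 difference 0.28 ± 0.03, adjusted p = 0.0217), a call lost without either auranofin library. Metallothioneins, which bind gold and zinc, were not called, and of 26 genes for them and for metal transport only the zinc importer Slc39a4 was (log2 difference 0.46 ± 0.06, adjusted p = 0.0306), a call lost without either auranofin library. Mt1 had 116 and 127 FPKM in vehicle against 154 and 147 FPKM in auranofin libraries (adjusted p = 0.0584) and Mt2 23.8 and 25.4 FPKM in vehicle against 28.6 and 29.0 FPKM in auranofin libraries (adjusted p = 0.0776). Sqstm1, the autophagy receptor p62 and an NRF2 target, had 340.3 and 319.9 FPKM in vehicle against 493 and 449 FPKM in auranofin libraries (log2 difference 0.51 ± 0.06, adjusted p = 0.0149), and Gabarapl1 was the other of 32 autophagy genes called (log2 difference 0.30 ± 0.03, adjusted p = 0.013), though not without auranofin replicate 1. Of 39 p53 and cell death genes, Mlkl, the executor of necroptosis, was higher (log2 difference 0.47 ± 0.05, adjusted p = 0.0122), while none of the 22 p53 targets was called.

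**Figure D3:**
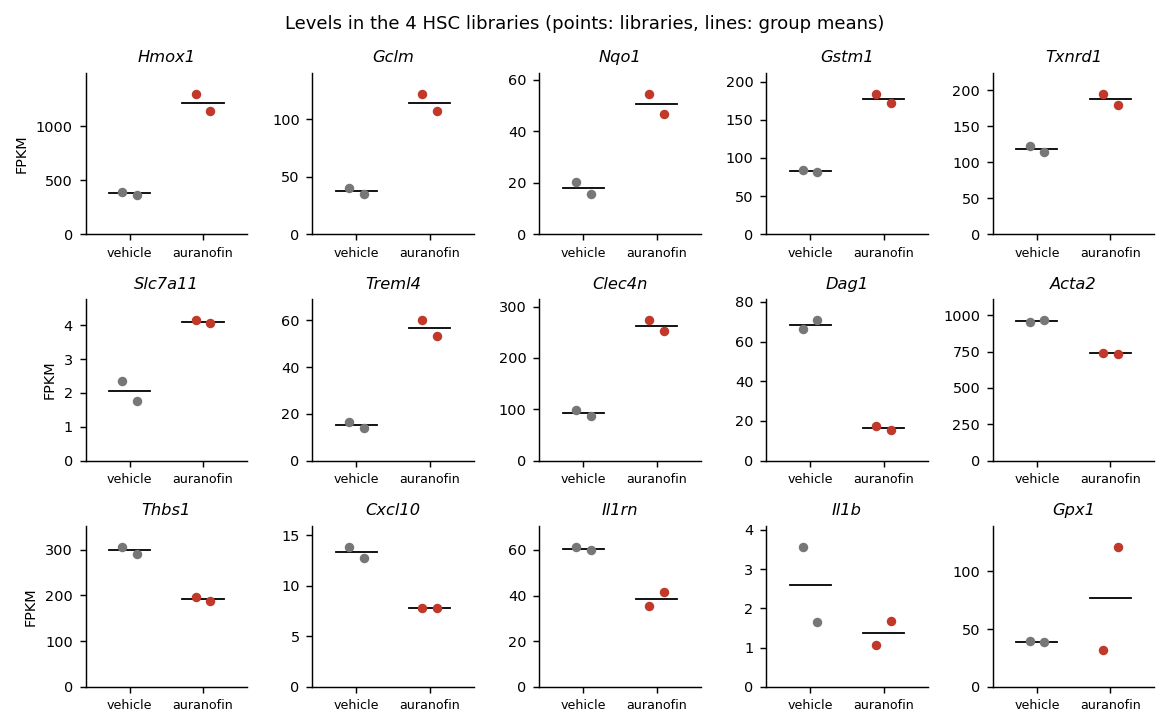
FPKM of 15 genes in the 4 libraries, with a linear axis from 0 in each panel, grey points for vehicle, red points for auranofin and a line at each group mean. Auranofin libraries lie clear above vehicle for the NRF2 targets and for Treml4 and Clec4n and clear below for Dag1, Acta2, Thbs1, Cxcl10 and Il1rn, whereas Il1b and Gpx1 overlap.

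The single largest rise of all called genes was that of Treml4, a TREM-family receptor of myeloid cells, on chromosome 17 from 48264200 to 48275607. Treml4 stood at 16.6 and 13.9 FPKM in the vehicle libraries and at 60.0 and 53.5 FPKM in the auranofin libraries, with a log2 difference of 1.84 ± 0.09 (SE, n = 2 per group) with an adjusted p of 0.00176. The uncharacterised A530064D06Rik, on the same chromosome from 48151896 to 48167257, had 7.23 and 6.34 FPKM in vehicle against 18.1 and 16.4 FPKM in auranofin libraries (log2 difference 1.23 ± 0.08, adjusted p = 0.00339). Clec4n, the receptor Dectin-2 for fungal mannans, had 99.1 and 86.5 FPKM in vehicle against 273 and 253 FPKM in auranofin libraries (log2 difference 1.496 ± 0.07, adjusted p = 0.00176), and its neighbour Clec4d on chromosome 6 had 103 and 95.4 FPKM in vehicle against 159 and 169 FPKM in auranofin libraries (log2 difference 0.72 ± 0.05, adjusted p = 0.00445). Clec4f, a mark of Kupffer cells, rose slightly (log2 difference 0.27 ± 0.04, adjusted p = 0.0395). Others of this class fell: Clec12a had 50.6 and 53.4 FPKM in vehicle against 38.1 and 36.6 FPKM in auranofin libraries (log2 difference -0.47 ± 0.04, adjusted p = 0.0101), Clec4g had 20.2 and 20.4 FPKM in vehicle against 15.2 and 14.2 FPKM in auranofin libraries (log2 difference -0.44 ± 0.05, adjusted p = 0.013) and the mannose receptor Mrc1 had 88.9 and 86.3 FPKM in vehicle against 69.5 and 74.2 FPKM in auranofin libraries (log2 difference -0.28 ± 0.04, adjusted p = 0.0395). Of 22 C-type lectin and TREM genes tested, 4 were thus higher (18.2%) and 3 lower (13.6%), beside 1.24% and 1.09% of all genes. The rest were not called, among them Clec7a with 502 and 481 FPKM in vehicle against 489 and 493 FPKM in auranofin libraries. The summed macrophage markers given above were lower in both auranofin libraries than in both vehicle libraries by a small amount, and Mrc1 and Clec4f are among those markers. Clec4g is one of the endothelial markers, of which it and Stab2, with 20.7 and 21.5 FPKM in vehicle against 15.9 and 16.3 FPKM in auranofin libraries, were the 2 called lower (13.3%), beside 1.09% of all genes. The part of these cell types in the differences was not tested. The calls of Mrc1, Clec4f and Stab2 were lost without auranofin replicate 1. Sh2b3, which encodes the adaptor LNK that restrains cytokine receptor signalling, was also among the 10 largest rises with 8.81 and 10.4 FPKM in vehicle against 22.7 and 23.0 FPKM in auranofin libraries (log2 difference 1.17 ± 0.08, adjusted p = 0.00387).

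Contractile genes of the myofibroblast were the clearest group of falls. Of 34 tested, 12 were lower, beside 1.09% of all genes, and none was higher. In 28 both auranofin libraries lay below both vehicle libraries, beside 23.9% of all genes, and 33 had a difference below 0, beside 47.8% of all genes. The median was -0.23, with -0.19 and -0.24 in the auranofin libraries. Acta2, which encodes α smooth muscle actin and lies on chromosome 19 from 34240336 to 34255585, had 956 and 965 FPKM in vehicle against 743 and 737 FPKM in auranofin libraries. This was 77.0% of the vehicle mean (a log2 difference of -0.38 ± 0.03 (SE, n = 2 per group) with an adjusted p of 0.00719). Myh11, smooth muscle myosin, had 27.1 and 26.8 FPKM in vehicle against 19.4 and 20.4 FPKM in auranofin libraries (log2 difference -0.42 ± 0.04, adjusted p = 0.0116), and Actg2, the enteric smooth muscle actin, had 145 and 131 FPKM in vehicle against 108 and 102 FPKM in auranofin libraries (log2 difference -0.39 ± 0.06, adjusted p = 0.0395), the latter not called without either auranofin library. The regulatory light chain Myl9 had 414 and 399.9 FPKM in vehicle against 326 and 317 FPKM in auranofin libraries and the actin-binding calponin Cnn1 95.3 and 92.9 FPKM in vehicle against 76.8 and 69.5 FPKM in auranofin libraries, the latter not called without auranofin replicate 2. Tagln, another smooth muscle mark, had 872 and 832 FPKM in vehicle against 747 and 715 FPKM in auranofin libraries and missed the threshold (adjusted p = 0.0616), and the intermediate filament Des had 50.6 and 55.1 FPKM in vehicle against 45.1 and 43.4 FPKM in auranofin libraries (adjusted p = 0.0751). Srf, the transcription factor of this programme, had 16.2 and 16.6 FPKM in vehicle against 15.1 and 14.2 FPKM in auranofin libraries and was not called. The count was 6 and 4 without auranofin replicates 1 and 2 and 14 without either vehicle library. Beside these falls, the summed stellate cell markers, of which Acta2 is one, were lower in both auranofin libraries, and those of mesothelial cells as well. Of the 6 mesothelial markers, 2 were called lower (33.3%), beside 1.09% of all genes. These were Msln with 3.13 and 2.96 FPKM in vehicle against 2.04 and 2.05 FPKM in auranofin libraries and Upk1b with 43.3 and 49.2 FPKM in vehicle against 35.0 and 35.1 FPKM in auranofin libraries. The call of Msln was lost whichever library was left out, and that of Upk1b without either auranofin library. Their part in the falls was not tested.

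**Figure D4:**
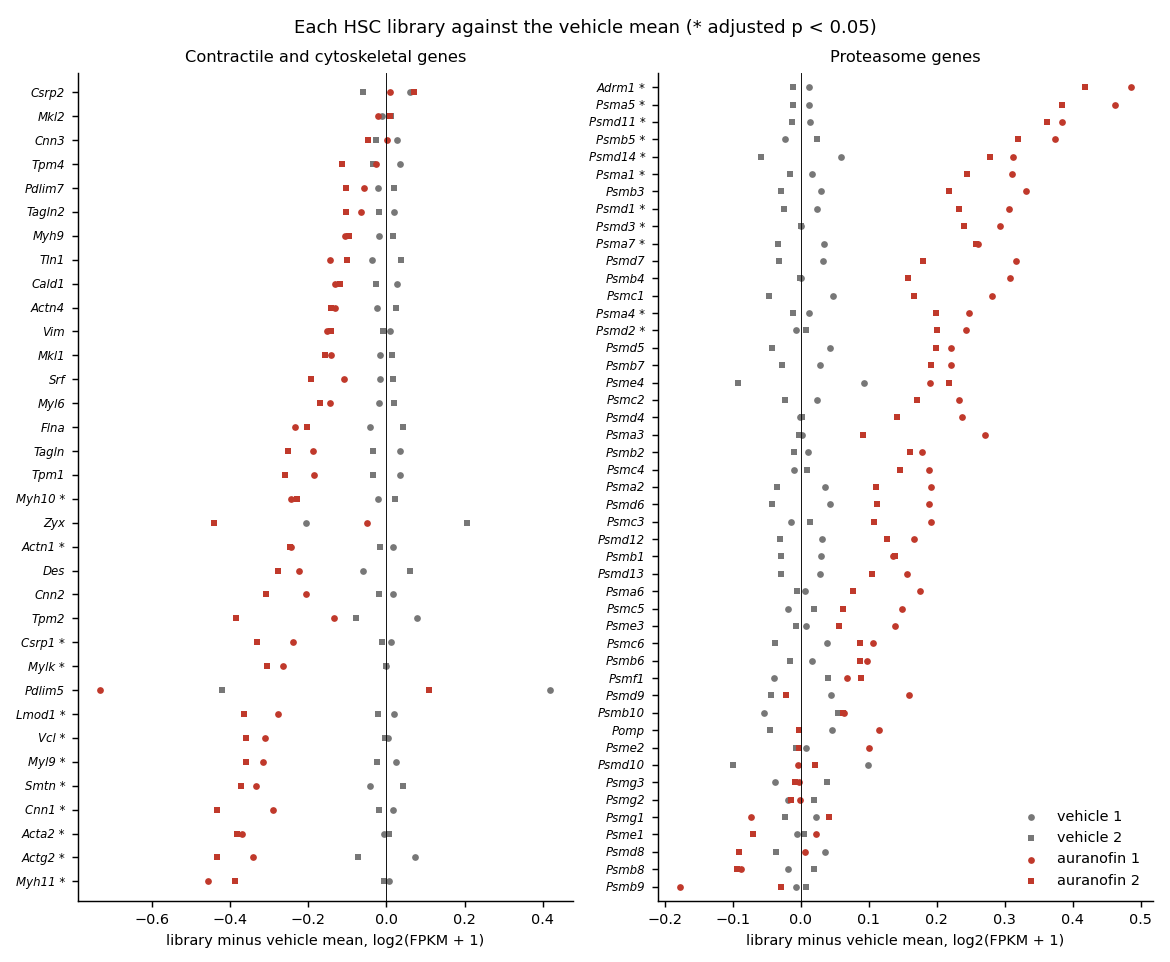
Deviation of each library from the vehicle mean, on the log2(FPKM + 1) scale, for 34 contractile and cytoskeletal genes (left) and 47 proteasome genes (right). Circles and squares are replicates 1 and 2 of vehicle (grey) and auranofin (red), with asterisks at called genes. Auranofin points lie left of vehicle for most contractile genes, with Pdlim5 and Zyx scattered in both groups, and right of vehicle for most proteasome genes.

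Matrix genes were called in small numbers, but more often lower than the 1.09% of all genes tested. The shares called lower were 6.82% of glycoproteins and proteoglycans and 4.44% of receptors and laminins. They were 9.09% of proteases, inhibitors and crosslinkers and 4.17% of collagens. Dag1 had the largest fall of all called genes. It encodes dystroglycan, the laminin receptor that ties the matrix to the cytoskeleton, and lies on chromosome 9 from 108204861 to 108263977. Dag1 stood at 66.4 and 70.6 FPKM in the vehicle libraries and at 17.4 and 15.4 FPKM in the auranofin libraries, with a log2 difference of -1.999 ± 0.07 (SE, n = 2 per group) with an adjusted p of 0.00132. The table lists 7 transcripts for it, so the value sums several isoform estimates. Of the 9 tested genes of its complex only Dag1 was called (11.1%), beside 1.09% of all genes called lower. In all, 8 of the 9 were below 0, beside 47.8% of all genes. In 4 both auranofin libraries lay below both vehicle libraries, beside 23.9% of all genes. Dmd, dystrophin, had 5.07 and 4.74 FPKM in vehicle against 3.88 and 3.93 FPKM in auranofin libraries (adjusted p = 0.0893), and its relative Utrn had 12.7 and 12.3 FPKM in vehicle against 12.0 and 12.4 FPKM in auranofin libraries. Itga1, a collagen-binding integrin chain, had 18.8 and 19.1 FPKM in vehicle against 14.3 and 14.5 FPKM in auranofin libraries (log2 difference -0.37 ± 0.04, adjusted p = 0.0141) and was called except without auranofin replicate 1. Thbs1, thrombospondin, an activator of latent TGF-β, had 307 and 290.5 FPKM in vehicle against 197 and 187 FPKM in auranofin libraries (log2 difference -0.63 ± 0.04, adjusted p = 0.00445). Fbln5 (log2 difference -0.39 ± 0.04, adjusted p = 0.0121) and the heparan sulfate proteoglycan Gpc3 (log2 difference -0.44 ± 0.06, adjusted p = 0.0334, not called without either auranofin library) were the other 2 called of 44 matrix glycoproteins and proteoglycans. Of 24 collagens, Col8a1 alone was called, with 31.6 and 31.5 FPKM in vehicle against 23.7 and 24.5 FPKM in auranofin libraries (log2 difference -0.38 ± 0.04, adjusted p = 0.0117). Col1a1 had 1001 and 1075 FPKM in vehicle against 927 and 973 FPKM in auranofin libraries, a difference of -0.13 with a 95% interval from -0.24 to -0.01 and an adjusted p of 0.253. Of the 24 collagens, 19 were below 0, with a median of -0.14, beside 47.8% of all genes below 0, and in 16 both auranofin libraries lay below both vehicle libraries, beside 23.9% of all genes. Of 55 matrix proteases, inhibitors and crosslinkers, 5 were lower and 1 higher. Among them, the aggrecanases Adamts5 (log2 difference -0.58 ± 0.07, adjusted p = 0.0227) and Adamts1 (log2 difference -0.52 ± 0.05, adjusted p = 0.0113) were lower and Mmp19 was higher (log2 difference 0.30 ± 0.05, adjusted p = 0.0439). Mmp19 was called in only 1 of the 4 fits that left out a library. Timp1, the collagenase inhibitor, had 254 and 239.7 FPKM in vehicle against 279 and 247 FPKM in auranofin libraries and was not called.

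Few growth factor genes were called. Of the TGF-β genes 7.14% were lower and none was higher, beside 1.09% and 1.24% of all genes. Of the angiogenic factors 7.69% were higher and 3.85% lower. Tgfb1 had 75.7 and 76.1 FPKM in vehicle against 75.7 and 72.8 FPKM in auranofin libraries, a difference of -0.03 with a 95% interval from -0.12 to 0.06. Of 42 genes for TGF-β ligands, receptors and targets, 3 were lower. Among these were the activin and inhibin chains Inhba, with 17.0 and 16.2 FPKM in vehicle against 13.3 and 12.8 FPKM in auranofin libraries (log2 difference -0.33 ± 0.05, adjusted p = 0.0337, not called without either auranofin library), and Inhbb, with 10.6 and 10.9 FPKM in vehicle against 7.51 and 7.14 FPKM in auranofin libraries (log2 difference -0.50 ± 0.05, adjusted p = 0.0113). None of the 10 receptors was called, nor was Ctgf, a classical target, with 239.5 and 229 FPKM in vehicle against 198 and 170.3 FPKM in auranofin libraries (adjusted p = 0.0792). None of 31 PDGF and migration genes was called by limma. Of these, 12 had an unadjusted limma p under 0.05, beside 17.8% of all genes tested, and 23 were below 0, beside 47.8%. In 17 both auranofin libraries lay below both vehicle libraries, beside 23.9% of all genes. Among 26 angiogenic factors, Apln, the peptide apelin, had 7.22 and 5.42 FPKM in vehicle against 16.6 and 12.3 FPKM in auranofin libraries (log2 difference 1.07 ± 0.16, adjusted p = 0.0395), Angptl2 was higher (log2 difference 0.31 ± 0.04, adjusted p = 0.0269) and Vegfd was lower, with 29.2 and 29.0 FPKM in vehicle against 21.1 and 19.4 FPKM in auranofin libraries (log2 difference -0.51 ± 0.05, adjusted p = 0.0113). The rise of Apln was not called without auranofin replicate 1, and that of Angptl2 without either auranofin library.

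Inflammatory genes were called in 1 direction. Of 33 cytokine, chemokine and receptor genes tested, 6 were lower (18.2%), beside 1.09% of all genes, and none was higher. The median was -0.15, with a like value, -0.16, in both auranofin libraries. Ccl12, a monocyte attractant, had 3.75 and 4.54 FPKM in vehicle against 1.64 and 1.41 FPKM in auranofin libraries (log2 difference -1.02 ± 0.10, adjusted p = 0.0103). Ccl2, its more abundant relative, had 198 and 189 FPKM in vehicle against 139 and 149 FPKM in auranofin libraries (log2 difference -0.42 ± 0.05, adjusted p = 0.0149), and the interferon-inducible Cxcl10 had 13.9 and 12.8 FPKM in vehicle against 7.74 and 7.82 FPKM in auranofin libraries (log2 difference -0.70 ± 0.05, adjusted p = 0.00565). Tnf, Csf1 and Cxcl16 were the others, none of them called without either auranofin library, and Tnf not without vehicle replicate 1 either. The count was 3 and 4 without auranofin replicates 1 and 2 and 7 and 11 without vehicle replicates 1 and 2. Of 47 interferon-stimulated genes, 43 were below 0, beside 47.8% of all genes. In 35 both auranofin libraries lay below both vehicle libraries, beside 23.9% of all genes. Only Ifit1 and Gbp8 were called (4.26%), beside 1.09% of all genes called lower. Gbp8 was not called whichever library was left out, and Ifit1 was called only without vehicle replicate 1. Vcam1 was the single call among 16 NF-kB feedback genes (6.25%), beside 1.09% of all genes called lower. Its log2 difference was -0.33 ± 0.05 (adjusted p = 0.0276), and the call was also lost without either auranofin library. Of the 16, 14 were below 0, beside 47.8% of all genes. Macrophage markers beside these genes had a median difference of -0.03, and the source of the cytokine transcripts within the culture was not tested.

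For the inflammasome, 1 of 25 tested genes was called (4%), beside 1.09% of all genes called lower. Of the 24 not called, 12 had an unadjusted limma p under 0.05, beside 17.8% of all genes tested. Their directions were mixed, as 11 of the 25 were above 0 and 14 below. Il1rn, which encodes the natural antagonist of the IL-1 receptor, had 61.4 and 59.8 FPKM in vehicle against 35.6 and 41.5 FPKM in auranofin libraries (a log2 difference of -0.64 ± 0.07 (SE, n = 2 per group) with an adjusted p of 0.0165). Il1b was near the minimum and scattered, with 3.57 and 1.64 FPKM in vehicle against 1.05 and 1.67 FPKM in auranofin libraries: its difference was -0.57, with a 95% interval from -1.23 to 0.09. Nlrp3 had 3.48 and 3.37 FPKM in vehicle against 2.71 and 3.01 FPKM in auranofin libraries (adjusted p = 0.221), Pycard, which encodes ASC, had 8.31 and 8.47 FPKM in vehicle against 9.002 and 9.87 FPKM in auranofin libraries (adjusted p = 0.254), and Gsdmd had 24.6 and 23.7 FPKM in vehicle against 21.3 and 22.3 FPKM in auranofin libraries (adjusted p = 0.183). Casp1 stood the other way, with 26.1 and 24.1 FPKM in vehicle against 31.5 and 30.4 FPKM in auranofin libraries and an adjusted p of 0.0551. Hmgb1 differed by 0.03, with a 95% interval from -0.09 to 0.15. The LPS-responsive Ptgs2 had 7.31 and 6.21 FPKM in vehicle against 6.47 and 6.35 FPKM in auranofin libraries and was not called, and Nos2, Chil3 and Ciita stayed below 1 FPKM in every library. Arg1 had 2.62 and 3.56 FPKM in vehicle against 3.51 and 3.12 FPKM in auranofin libraries and Cd44 47.5 and 46.7 FPKM in vehicle against 43.7 and 43.8 FPKM in auranofin libraries, neither of them called.

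Few genes of lipid and energy metabolism were called. Of 29 tested genes of lipid uptake and storage, 2 were higher and 2 lower (6.9% each), beside 1.24% and 1.09% of all genes. Nr1h3, the sterol sensor LXRα, was lower with 42.0 and 46.5 FPKM in vehicle against 27.9 and 25.8 FPKM in auranofin libraries (log2 difference -0.70 ± 0.06, adjusted p = 0.00888), as was the lipid droplet protein Plin2 with 190.1 and 199 FPKM in vehicle against 153 and 157 FPKM in auranofin libraries (log2 difference -0.33 ± 0.04, adjusted p = 0.0159), the latter not called without auranofin replicate 1. The lysosomal lipase Lipa (log2 difference 0.29 ± 0.03, adjusted p = 0.0141, not called without either auranofin library) and the fatty acid importer Cd36 (log2 difference 0.24 ± 0.04, adjusted p = 0.0464) were higher, and Cd36 was called in only 1 of the 4 fits without a library. None of 29 cholesterol synthesis and uptake genes was called by limma, while 12 had an unadjusted p under 0.05 and 25 were below 0 with a median of -0.12, beside 17.8% and 47.8% of all genes tested. In glycolysis, Aldoa (log2 difference 0.28 ± 0.04, adjusted p = 0.0258) and Pkm (log2 difference 0.24 ± 0.03, adjusted p = 0.0269) were called of 28, each lost without either auranofin library. These 2 were 7.14% of the list, beside 1.24% of all genes called higher. Of 76 subunits of the respiratory chain and ATP synthase, Uqcrq was lower, with 76.9 and 78.2 FPKM in vehicle against 57.0 and 56.8 FPKM in auranofin libraries (log2 difference -0.44 ± 0.03, adjusted p = 0.0053), and Atp5f1 higher (log2 difference 0.39 ± 0.06, adjusted p = 0.0352), the latter not without auranofin replicate 1. These single calls were 1.32% of the list each way, near the 1.24% of all genes called higher and 1.09% called lower. None of 49 ribosomal protein genes was called by limma, and none had an unadjusted p under 0.05. Of 44 cell cycle genes, 40 were below 0, beside 47.8% of all genes, with a median of -0.09. The replication licensing genes Cdt1 (log2 difference -0.28 ± 0.05, adjusted p = 0.0445) and Mcm2 (log2 difference -0.25 ± 0.04, adjusted p = 0.0439) were called, which was 4.55% of the list beside 1.09% of all genes called lower. Mcm2 was not called whichever library was left out and Cdt1 was called only without vehicle replicate 2. None of 26 immediate early genes was called by limma, and 5 had an unadjusted p under 0.05, beside 17.8% of all genes tested.

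**Figure D5:**
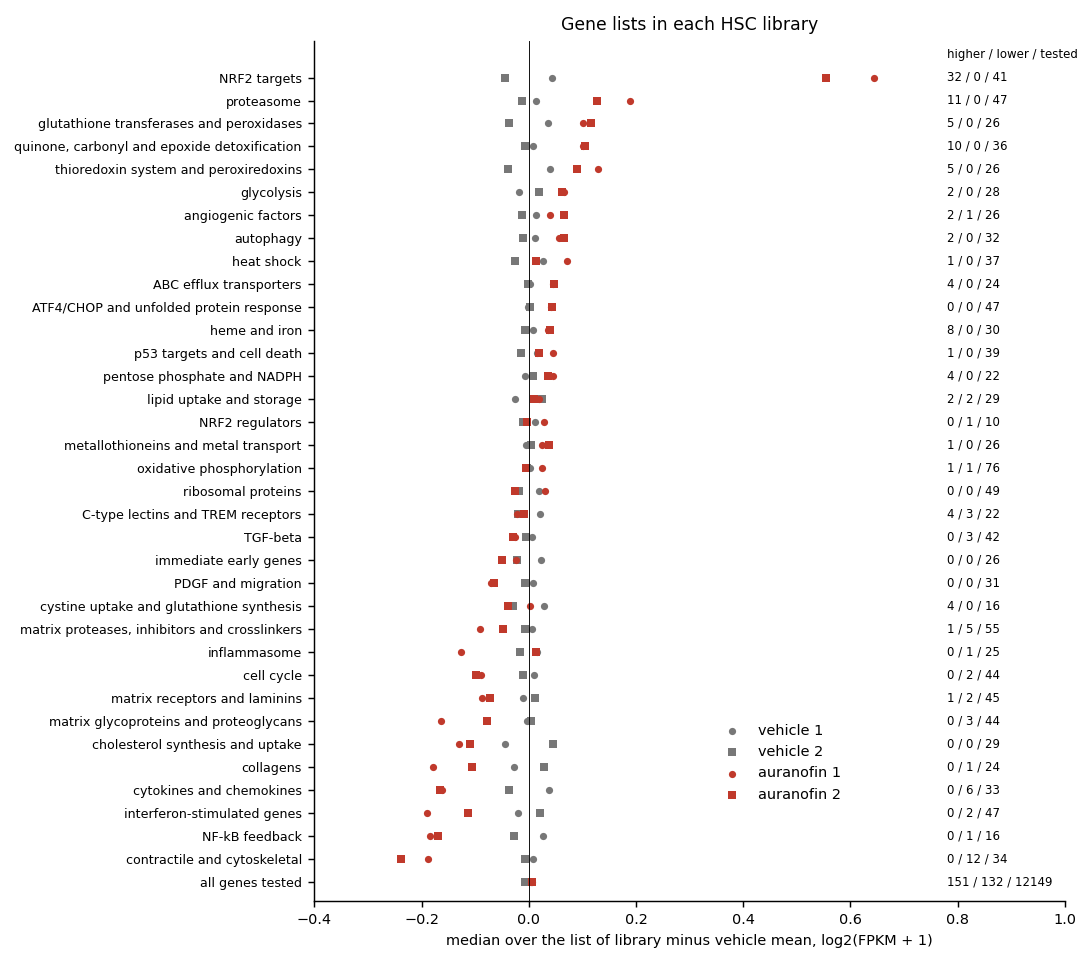
Median over each gene list of every library's deviation from the vehicle mean, on the log2(FPKM + 1) scale, with all genes tested at the bottom and the numbers called higher, called lower and tested at the right. Circles and squares are replicates 1 and 2 of vehicle (grey) and auranofin (red). NRF2 targets stand at 0.64 and 0.55 in the auranofin libraries, and contractile genes, with the lowest median difference of these lists, at -0.19 and -0.24.

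Several of the largest falls belong to none of these groups. Elf2, an ETS transcription factor with 4 listed transcripts, had 10.9 and 10.2 FPKM in vehicle against 5.58 and 5.49 FPKM in auranofin libraries (log2 difference -0.82 ± 0.05, adjusted p = 0.00372). Clk2-scamp3, a readthrough gene on chromosome 3, had 8.80 and 11.1 FPKM in vehicle against 3.19 and 3.15 FPKM in auranofin libraries (log2 difference -1.38 ± 0.10, adjusted p = 0.00492), while Scamp3, whose exons it shares, was higher, with 35.8 and 34.9 FPKM in vehicle against 51.4 and 49.3 FPKM in auranofin libraries (log2 difference 0.50 ± 0.04, adjusted p = 0.00606). Fragments of the shared exons cannot be told apart, so both values are uncertain. Snord22 is a small nucleolar RNA inside a host gene, and its fall (log2 difference -0.66 ± 0.07, adjusted p = 0.0113) cannot be separated from reads of the host. The lectin Siglecf had 5.40 and 5.71 FPKM in vehicle against 2.75 and 3.57 FPKM in auranofin libraries (log2 difference -0.66 ± 0.10, adjusted p = 0.0395) and Matk, a kinase of blood cells, had 5.08 and 5.51 FPKM in vehicle against 3.20 and 2.88 FPKM in auranofin libraries (log2 difference -0.64 ± 0.07, adjusted p = 0.0149). Of all called genes, 82 of the 151 higher and 87 of the 132 lower stood on none of the lists.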

How the data were processed

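RNA of activated primary mouse HSCs was sequenced from 2 vehicle and 2 auranofin (0.03 µM, 12 h) libraries. The kit kept the strand of the mRNA. For these cells, 1 table of FPKM values was deposited by the authors, made, per the submitters' processing notes, on mm10 with Trimmomatic 0.38, HISAT2 2.1.0 and StringTie 1.3.4d, whose roles and settings are not given in the sources used here. FPKM from StringTie splits fragments between overlapping transcripts, which can move values of genes with shared sequence. The deposited FPKM values were used as they are. No counts are given, so no count test was run, and depth was estimated from the steps of values under 0.2 FPKM in genes with 1 transcript, using GENCODE M21 lengths. Such depths bear on counting error only.

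Genes averaging 1 FPKM or more were taken as log2(FPKM + 1) and fitted with limma 3.58.1 (lmFit, then eBayes with trend) in R 4.3.3, with Benjamini-Hochberg adjustment over all 12149 genes. Tables were made with Python 3.11.15, numpy 2.4.6 and pandas 2.3.3, and figures with matplotlib 3.10.9. Tested on simulated data of this comparison with 12149 genes, the fit recovered 95 of 100 genes changed 2-fold and 78 of 100 changed 1.5-fold, with 5 false calls. The changed genes were drawn from those averaging 5 FPKM or more, so recovery of lower genes was not tested. The simulated noise was normal and independent between genes, which real libraries need not follow. Gene lists were written by hand, and they and the members were chosen with earlier results of these data known. Lists are described by their counts and medians beside those of all genes. Genes were named when they were among the 10 largest called rises or falls with groups that do not overlap, among the 3 largest called members each way of a list, or among genes that the study assayed otherwise or that regulate NRF2. Cell type markers aside, the others were chosen after their values were seen: of the called genes Abcc3, Cbr3, Clec4f, Cnn1, Csf1, Cxcl16, Fth1, Ftl1, Gclc, Gstp1, Idh1, Mgst1, Msln, Myl9, Psmb5, Scamp3, Slc11a1, Slc40a1, Sod1, Tnf and Upk1b, and all genes outside these rules that were not called. The values of 1 gene that these rules name are not reported here. Coordinates are those of the RefSeq gene table of GRCm38.p6, in which 12133 of 12149 gene identifiers were found, and promoters are from RefSeq on the same build. Alternatives left out each library, blocked on the replicate number, dropped the trend or the moderation of eBayes, used pseudocounts of 0.1 and 5 FPKM, dropped the filter or raised it to 5 FPKM, and rescaled the libraries by quantiles or by their median.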

Additional observations from a re-analysis of the deposited data

How the results depend on the processing

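The main counts were 151 genes higher and 132 lower at an adjusted p under 0.05, 52 higher and 18 lower past 1.5-fold with an unadjusted p under 0.05, 32 NRF2 targets higher and 12 contractile genes lower. The fold-based counts depend on the pseudocount, with 81 higher and 43 lower at 0.1 FPKM and 31 and 7 at 5 FPKM, and 10 genes were lower with a mean of at least 5 FPKM. The counts by adjusted p depend on the variance model. Without a filter on low values they were 40 higher and 9 lower, with 16 NRF2 targets and 0 contractile genes, of 18645 genes tested. Without the trend they were 85 and 44, with 2 contractile genes. Without moderation they were 0 and 0, for NRF2 targets and contractile genes as well, with 1585 genes at an unadjusted p under 0.05. The cause was not tested. With each library left out in turn, the counts ranged from 94 to 268 higher and 83 to 225 lower by adjusted p, from 64 to 89 and from 42 to 65 by fold, from 24 to 35 for NRF2 targets and from 4 to 14 for contractile genes; the lone library of a group was then assumed to vary like the others. Of the 283 called genes, 261 and 244 stayed called without vehicle replicates 1 and 2 and 122 and 154 without auranofin replicates 1 and 2, and all 283 kept their direction. Quantile normalization kept 243 of them and turned the direction of 2, and centring on the median kept 281. Calls among the genes named in the report that were not kept with a library left out are stated beside them, and no named gene reversed as a called value.

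The replicate numbers of the groups are shared, but the sources do not say that they mark a common culture or day, and 2 pairs are too few to tell from the data (correlation of same-numbered deviations 0.109). Single genes do go with the number, such as Sbp and Spink1, which were above 9 FPKM in both second replicates and below 1 FPKM in both first ones, and Cyp26b1, at 28.8 and 35.9 FPKM in the first replicates and 8.52 and 11.1 FPKM in the second ones. A fit with the replicate block called 148 genes higher and 134 lower, 220 of them among the 283, with 31 NRF2 targets and 16 contractile genes. Of the genes named here, Slc39a4, Mmp19, Cd36, Mcm2, Cdt1, Mrc1, Gbp8, Clec4f, Msln and Tnf were not called with the block. Depth limits the low genes most, such as Il1b and Slc7a11.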

Other observations

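Genes averaging 10 FPKM or more numbered 6430. Replicates were 2-fold or more apart in 13 of them for vehicle and in 19 for auranofin on the log2(FPKM + 1) scale, 5 of them in both groups, and limma called none of these genes. Those given here were chosen after their values were seen. In 2 cases a gene and its near copy exchanged values in 1 library. Rps27, a ribosomal protein gene, was at 417, 376 and 405 FPKM in the vehicle libraries and auranofin replicate 2 but at 3.20 FPKM in auranofin replicate 1, where its copy Rps27rt was at 428 FPKM instead of 2.41 to 2.63 FPKM. Likewise Atp6v0c, a proton pump subunit, was at 7.91 FPKM in auranofin replicate 2 and at 611 to 641 FPKM in the others, and the pseudogene Atp6v0c-ps2 was at 609 FPKM in that library and below 1 FPKM in the others. Vehicle replicate 2 and auranofin replicate 2 held 124 and 34.8 FPKM of Sbp and 35.0 and 9.998 FPKM of Spink1, while both first replicates were below 1 FPKM for both genes, which encode proteins of male accessory glands and of the pancreas. The neutrophil marker S100a9 was at 10.8 and 2.23 FPKM with vehicle and at 2.43 and 44.7 FPKM with auranofin.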
